A study of Mus musculus with 11 samples.

Results

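The genes described here are 10 transcripts of the interleukin-1, tumour necrosis factor (TNF) and NF-kB circuit, measured in the apex of C57BL/6 mouse hearts. They were chosen by name, with earlier results of these data known, and all 10 were found by gene identifier among the 55414 identifiers measured. They are the cytokines Il1a, Il1b, Il18, Il33 and Tnf, the interleukin-1 receptor antagonist Il1rn, the growth factor Csf1, the NF-kB inhibitors Nfkbia and Tnfaip3, and the adhesion molecule Icam1. RNA was sequenced in bulk from 11 libraries in 3 groups. NR hearts were not irradiated (n = 4). S-PRT hearts received a single 40 Gy dose of protons to the apex at the standard dose rate (n = 4), and F-PRT hearts received 40 Gy by FLASH, in which protons are delivered at an ultra-high dose rate (n = 3). The irradiated apexes were taken 2 weeks after the dose, and no age, sex or collection time of the NR hearts is given in the labels. The labels carry no transgene or further agent, and they do not tell whether a library is 1 animal or a pool.

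NF-kB is a family of transcription factors held in the cytoplasm by IkB proteins. Interleukin-1 and TNF receptors activate a kinase that marks IkB for destruction, after which NF-kB enters the nucleus and switches on genes for cytokines, adhesion molecules and its own inhibitors. In the heart these cytokines are made mainly by leukocytes, and also by stromal and endothelial cells under stress, and Icam1 on endothelium holds leukocytes that are leaving the blood.

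The promoters of the 10 genes were searched on both strands for the kappa B consensus, the DNA motif that NF-kB dimers bind. Windows of 300 bases (250 before to 50 after the annotated start) came from RefSeq on GRCm38.p6, and the 10 genes had 14 of them. A match stood in a window of 3 of the 10 genes, namely Csf1, Nfkbia and Tnfaip3. In all of RefSeq 4.51% of 32851 windows and 5.14% of 27025 genes held one. The promoters with a match are shown, with the promoter of Il1b, which had the largest log2 fold change of the 7 genes tested, beside them. They are printed 5′ to 3′ on the strand of the gene, and capitals mark the matches.
Csf1, chr3:107760420-107760719, minus strand: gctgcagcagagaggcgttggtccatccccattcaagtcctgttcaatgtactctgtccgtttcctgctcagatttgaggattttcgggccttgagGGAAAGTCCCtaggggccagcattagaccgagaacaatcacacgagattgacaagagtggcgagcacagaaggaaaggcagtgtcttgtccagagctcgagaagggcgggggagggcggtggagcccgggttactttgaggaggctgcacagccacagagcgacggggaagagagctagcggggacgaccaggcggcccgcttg
Nfkbia, chr12:55492598-55492897, minus strand: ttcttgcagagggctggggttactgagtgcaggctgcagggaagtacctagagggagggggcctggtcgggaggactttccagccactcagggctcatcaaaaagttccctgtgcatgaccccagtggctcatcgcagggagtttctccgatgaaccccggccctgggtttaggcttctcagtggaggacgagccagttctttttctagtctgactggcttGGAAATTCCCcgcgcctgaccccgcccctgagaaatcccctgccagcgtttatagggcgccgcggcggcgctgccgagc
Tnfaip3, chr10:19015361-19015660, minus strand: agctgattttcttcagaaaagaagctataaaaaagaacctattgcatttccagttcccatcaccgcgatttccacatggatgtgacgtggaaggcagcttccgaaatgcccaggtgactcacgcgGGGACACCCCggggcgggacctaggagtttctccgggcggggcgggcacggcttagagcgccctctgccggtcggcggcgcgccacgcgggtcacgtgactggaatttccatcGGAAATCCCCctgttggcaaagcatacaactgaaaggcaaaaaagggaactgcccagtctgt
Il1b, chr2:129371090-129371389, minus strand: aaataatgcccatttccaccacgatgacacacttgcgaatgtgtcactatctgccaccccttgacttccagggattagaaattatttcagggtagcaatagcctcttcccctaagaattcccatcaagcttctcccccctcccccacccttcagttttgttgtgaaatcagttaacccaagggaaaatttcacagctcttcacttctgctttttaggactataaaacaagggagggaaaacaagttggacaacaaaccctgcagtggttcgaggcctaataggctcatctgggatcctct
The Csf1 match covered bases -154 to -145 from the start and read as the consensus on the opposite strand. The Nfkbia match, at -29 to -20, was also on the opposite strand. Tnfaip3 held a match on its own strand at -125 to -116 and another on the opposite strand at -12 to -3. A match is a string of letters and not a measured site, and windows without one were searched over these bases only. Only full matches to the consensus were counted, so a window without one, such as that of Icam1, can still hold a variant of it.

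**Figure D1:**
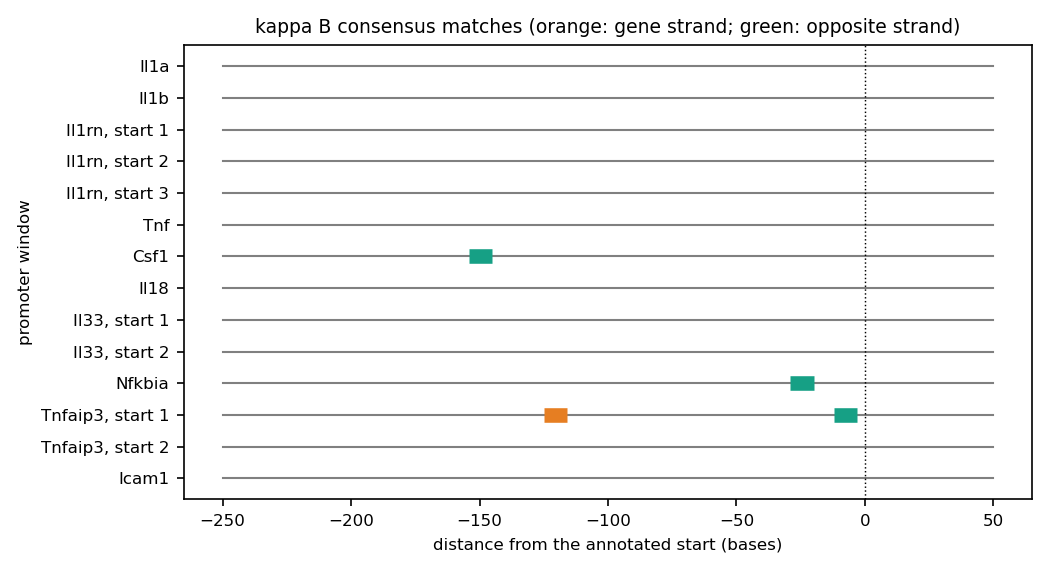
Position of kappa B consensus matches in the 14 promoter windows of the 10 genes. The horizontal axis is the distance from the annotated start in bases, grey lines are the windows, and boxes are matches on the strand of the gene (orange) or the opposite strand (green). Matches lie in 3 of the 10 genes, with a pair of them in 1 window of Tnfaip3.

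The libraries held 20758170 to 40136578 expected counts, and mitochondrial transcripts took 24.18% to 43.77% of them. Summed TPM (a per-million level that corrects for transcript length) of 5 cardiomyocyte markers ran from 21830.83 to 43586.77 over the libraries, so the label of heart tissue holds. Libraries differed in 1 further way. The correlation of centred log2 counts with transcript length across 14556 genes ran (Spearman) from 0.338 to 0.418 for the 4 NR libraries, from -0.257 to 0.267 for S-PRT and from -0.556 to -0.162 for F-PRT. Its part in the differences between groups was not tested apart from the refits that remove it. The groups are compared below in CPM (read counts on a per-million scale, adjusted between libraries by TMM) with edgeR's quasi-likelihood test, in which a gene is called when its Benjamini-Hochberg adjusted p over 14556 genes is under 0.05. The labels do not say that libraries came from separate animals, so each p-value is set against library spread that could be technical alone.

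Of the 10 genes, Nfkbia and Csf1 were the most abundant in unirradiated apex and the cytokines were near the lower end of detection. On the TPM scale the NR levels were 12.8 ± 4.11 for Nfkbia, 9.31 ± 2.40 for Csf1 and 2.88 ± 1.25 for Icam1 (SD, n = 4). Il33 followed at 0.695 ± 0.256, Tnfaip3 at 0.458 ± 0.192, Il18 at 0.320 ± 0.107 and Il1b at 0.258 ± 0.064. Tnf stood at 0.118 ± 0.060, Il1rn at 0.068 ± 0.045 and Il1a at 0.010 ± 0.012. The NR ranges of neighbours in this order overlapped, except that Csf1 lay wholly above Icam1, Icam1 above Il33 and Il1b above Tnf. Within each NR library, Nfkbia was also above Csf1, Il33 above Tnfaip3 and Il18 above Il1b. In S-PRT the mean of Il1b, 0.920 ± 0.477 TPM, stood above those of Il33, Tnfaip3 and Il18, with ranges that overlapped.

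Only 7 of the 10 genes passed the count filter, which asks for 0.356 CPM or more in at least 3 libraries, with CPM there taken from library totals before the TMM adjustment. Il1a, Il1rn and Il18 did not pass. Tnf reached that level in 0 of 4 NR, 2 of 4 S-PRT and 3 of 3 F-PRT libraries, and Il1b in 1, 4 and 2. Both therefore entered the test through the irradiated libraries, so the number of tested genes that differ carries no weight of its own. In S-PRT against NR, 2 of the 7 were called, both higher (Il1b and Csf1), where 1.29% of all 14556 genes were called and 0.872% were called higher. The calls over all genes were 127 higher and 61 lower, and 11 higher and 3 lower when libraries were scaled by their totals alone. In F-PRT against NR, 1 of the 7 was called (Tnf, higher), where 19.5% of all genes were called and 10.8% were called higher. In F-PRT against S-PRT 0 of the 7 were called, and 0% of all genes. At an unadjusted edgeR p under 0.05 that comparison held 2 of the 7 and 2315 of all genes, and DESeq2's test called 56 genes higher and 78 lower, none of them among the 7. Both comparisons with NR share the 4 NR libraries.

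**Figure D2:**
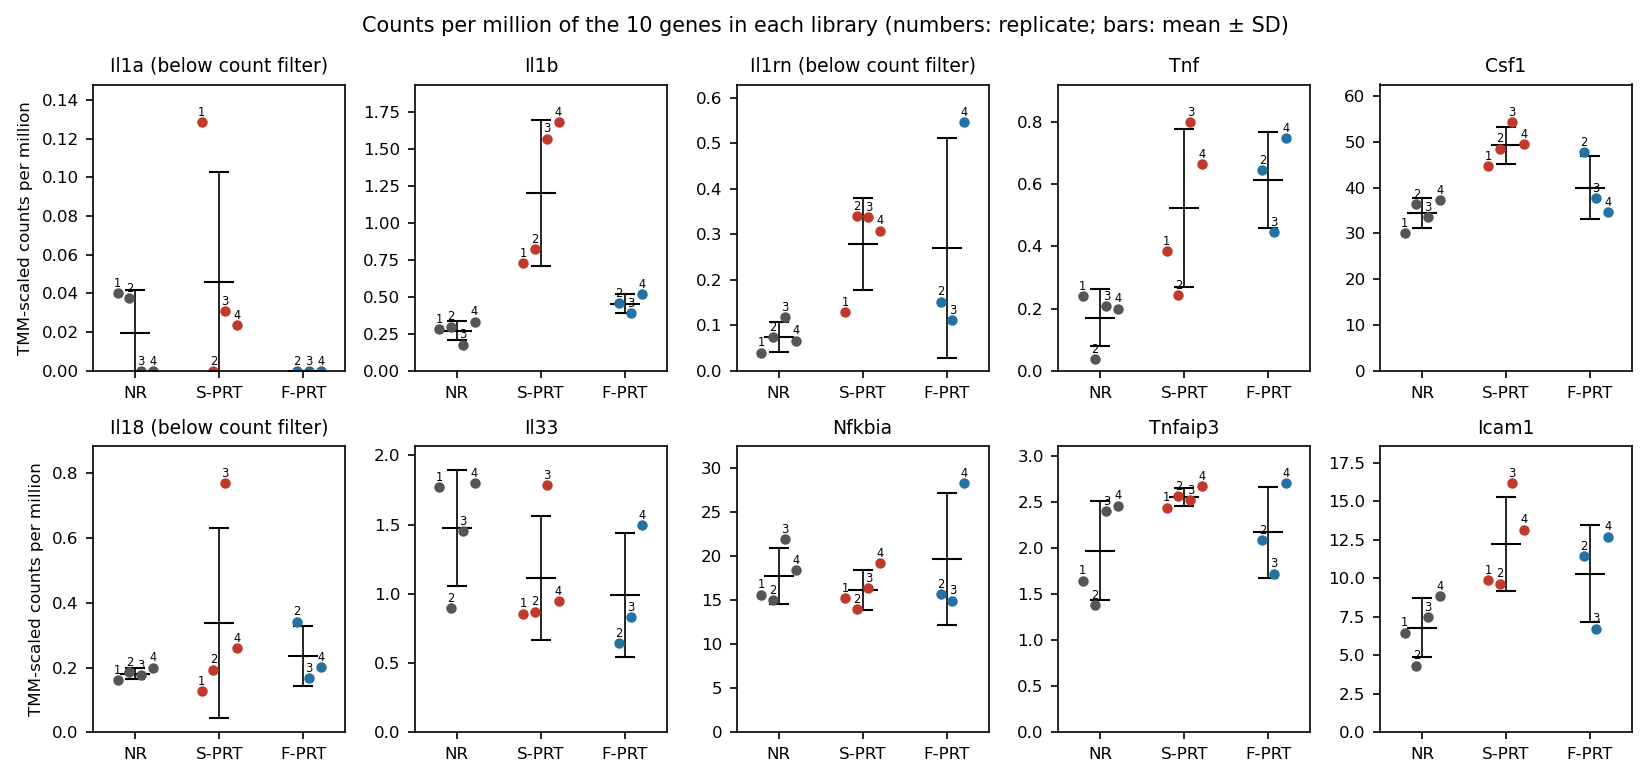
TMM-scaled CPM of each of the 10 genes in the 11 libraries by group, each panel on its own linear axis from 0; points are libraries numbered by replicate, and bars are the mean ± SD. In CPM all S-PRT libraries lie above all NR libraries for Il1b, Tnf, Csf1, Il1rn and Icam1, and Il1a is at 0 in every F-PRT library. On the TPM scale, not shown, Tnf, Csf1, Il1rn and Icam1 overlap between S-PRT and NR. The share of all genes that separate in CPM was not counted, so whether such separation is unusual for these 10 genes cannot be told. For Il1rn the margin is narrow, with 0.129 CPM (3 counts) in S-PRT replicate 1 against 0.119 CPM (4 counts) in NR replicate 3.

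Il1b (ENSMUSG00000027398.14), the main interleukin-1 secreted by activated monocytes and macrophages, rose after standard protons. It measured 0.281, 0.299, 0.178 and 0.333 CPM in NR replicates 1 to 4, and 0.729, 0.824, 1.57 and 1.68 CPM in S-PRT in the same order. The F-PRT libraries (replicates 2 to 4) had 0.456, 0.389 and 0.518 CPM. All S-PRT libraries stood above all others, and the F-PRT libraries lay in the gap between NR and S-PRT without overlapping either. These levels rest on few reads, with 6 to 15 expected counts per NR library, 17 to 71 per S-PRT and 7 to 18 per F-PRT library. Mean CPM increased from 0.273 ± 0.067 (NR) to 1.20 ± 0.494 (S-PRT; SD, n = 4 each), a log2 fold change of 2.15 ± 0.35 (SE), or 4.43-fold, with an edgeR adjusted p of 0.017. Between same-numbered libraries, S-PRT was 2.59, 2.76, 8.82 and 5.05 times NR. The call was lost without NR replicate 1, 2, 3 or 4 (adjusted p = 0.052, 0.0503, 0.0631 and 0.064) or S-PRT replicate 3 (0.063), and the log2 fold change stayed between 1.93 and 2.32. It was also lost with scaling by library totals alone (2.02, adjusted p = 0.071) and on log2(TPM + 0.1), where the difference was 1.40 (limma adjusted p = 0.19).

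After F-PRT the mean of Il1b was 0.454 ± 0.0644 CPM (n = 3), with a log2 fold change against NR of 0.74 ± 0.41 that did not pass (edgeR adjusted p = 0.21). F-PRT replicate 3 stood inside the NR range on the TPM scale, at 0.25 against 0.19 to 0.34. Set directly against S-PRT, Il1b had a log2 difference of -1.40 ± 0.37 in F-PRT, an interval of 2 SE from -2.14 to -0.67 (edgeR unadjusted p = 0.0022). The edgeR adjusted p over all genes was 0.18, so the difference between the irradiated groups did not pass, although their libraries did not overlap. Over 23 other settings the adjusted p ran from 0.08 (DESeq2) to 0.974 and the sign was the same in each.

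Il1rn (ENSMUSG00000026981.16) encodes the antagonist that occupies the interleukin-1 receptor without signalling. The NR libraries had 1, 2, 4 and 3 expected counts, the S-PRT libraries 3, 7, 11 and 13, and the F-PRT libraries 4, 2 and 19. In CPM all S-PRT libraries, at 0.129 to 0.339, were above the NR libraries, at 0.0402 to 0.119, while F-PRT reached from 0.111 to 0.547 and overlapped both. On the TPM scale S-PRT, at 0.07 to 0.26, overlapped NR, at 0.01 to 0.12. With no count filter the log2 fold change was 1.82 ± 0.66 in S-PRT (edgeR adjusted p = 0.174) and 1.85 ± 0.69 in F-PRT (adjusted p = 0.0886), and neither passed. The log2 ratio of Il1rn to Il1b counts, with 1 added to each, needs no scaling between libraries. NR libraries had a ratio of -1.52 ± 0.72, S-PRT libraries -1.95 ± 0.53 and F-PRT libraries -0.91 ± 0.85 (SD), so antagonist counts were below agonist counts on average in each group. The differences were -0.44 for S-PRT against NR (exact two-sided permutation p = 0.4), 0.61 for F-PRT against NR (p = 0.37) and 1.05 for F-PRT against S-PRT (p = 0.11), where the exact permutation test could reach 0.029. None of these differences passed, and the ratio rests on few counts.

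Il1a (ENSMUSG00000027399.2), the interleukin-1 that acts as an alarm signal from dying cells, was barely detected. Pooled over libraries it had 2 rounded counts (NR), 5 (S-PRT) and 0 (F-PRT), and a count of 0 allows a level of up to 0.0411 on the per-million scale of the pooled total there (3 counts, counting error only). Il18 (ENSMUSG00000039217.14), a cytokine released by inflammasomes, had 3 to 25 counts per library. Its log2 fold change without the filter was 0.91 ± 0.56 in S-PRT and 0.37 ± 0.64 in F-PRT (edgeR adjusted p = 0.559 and 0.793). S-PRT replicate 3 alone held 25 of the 43 S-PRT counts. Il33 (ENSMUSG00000024810.17), a nuclear alarmin of stromal cells, averaged 1.48 ± 0.418 CPM (SD) without irradiation, 1.11 ± 0.448 after S-PRT and 0.992 ± 0.447 after F-PRT. The groups overlapped, and the log2 fold changes of -0.40 ± 0.33 and -0.55 ± 0.37 did not pass (adjusted p = 0.57 and 0.3). Their intervals of 2 SE, -1.07 to 0.27 and -1.29 to 0.19, leave room for a fall as well as for a small rise.

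Tnf (ENSMUSG00000024401.15), which encodes the founding cytokine of the TNF family, rose after FLASH. It measured 0.241, 0.0374, 0.207 and 0.200 CPM in NR replicates 1 to 4 and 0.386, 0.243, 0.7998 and 0.663 CPM in the 4 S-PRT libraries in the same order. The F-PRT libraries (replicates 2 to 4) had 0.646, 0.445 and 0.748 CPM. In CPM every irradiated library was above every NR library, by a narrow margin for S-PRT replicate 2, and the irradiated groups overlapped. On the TPM scale S-PRT replicate 2, at 0.12, lay within the NR range of 0.03 to 0.16. Mean CPM increased from 0.171 ± 0.0912 (NR) to 0.613 ± 0.154 (F-PRT), a log2 fold change of 1.82 ± 0.50 or 3.53-fold (edgeR adjusted p = 0.027). The call was lost without NR replicate 2 (adjusted p = 0.0531), which held 1 count, without NR replicate 3 or 4 (0.0519 and 0.0562), and without F-PRT replicate 2 or 4 (0.0615 and 0.0959). It was lost too with library totals alone (1.88, adjusted p = 0.0888), with the length trend removed (1.62, adjusted p = 0.0851), with a replicate block (2.01, adjusted p = 0.135), although those libraries were not taken as paired, and on log2(TPM + 0.1), at 1.30 (limma adjusted p = 0.151). In S-PRT the mean was 0.523 ± 0.254 CPM, with a log2 fold change of 1.61 ± 0.47 that did not pass (adjusted p = 0.11). With the replicate number as a block the S-PRT difference passed (1.62, edgeR adjusted p = 0.0426). F-PRT and S-PRT differed by 0.20 ± 0.45 on the log2 scale (interval of 2 SE from -0.70 to 1.11, adjusted p = 0.86), so a call in F-PRT and none in S-PRT does not show that the groups differ.

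**Figure D3:**
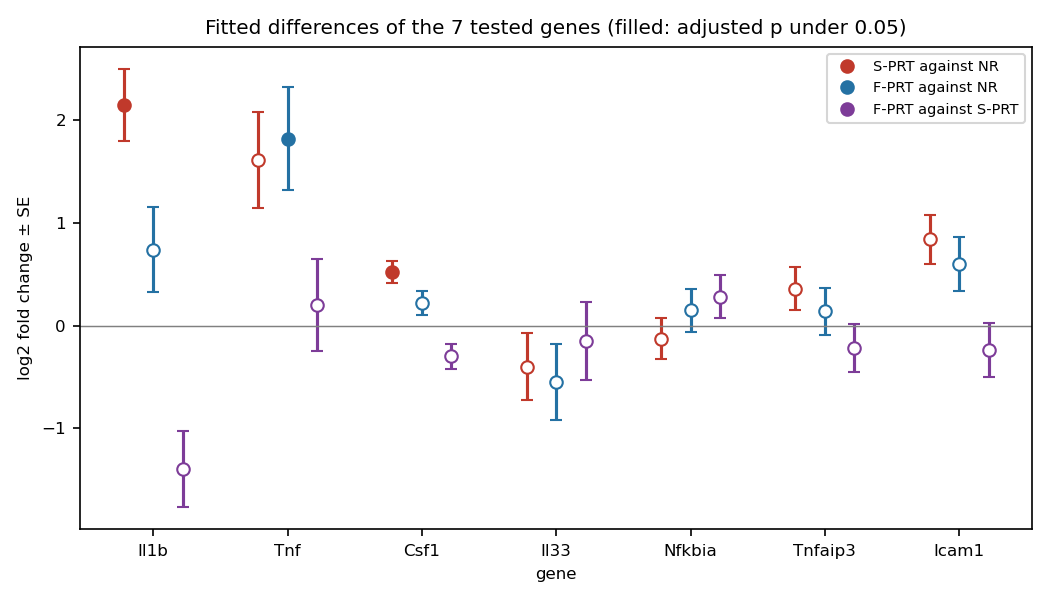
Log2 fold change ± SE of the 7 tested genes in the 3 comparisons, from edgeR; filled points have an adjusted p under 0.05. The filled points are Il1b and Csf1 in S-PRT against NR and Tnf in F-PRT against NR, and no point of F-PRT against S-PRT is filled.

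Csf1 (ENSMUSG00000014599.11), the growth factor that macrophages and monocytes need to survive, rose after standard protons. It measured 30.1, 36.5, 33.6 and 37.3 CPM in NR replicates 1 to 4 and 44.7, 48.5, 54.4 and 49.4 CPM in S-PRT in the same order. The F-PRT libraries (replicates 2 to 4) had 47.7, 37.6 and 34.6 CPM. S-PRT lay wholly above NR, while F-PRT overlapped both. With 677 to 2086 counts per library it was the most deeply covered of the 10 genes. The mean rose from 34.4 ± 3.28 to 49.2 ± 3.99 CPM, a log2 fold change of 0.52 ± 0.11 or 1.43-fold (edgeR adjusted p = 0.039). In F-PRT, at 40.0 ± 6.82 CPM, the log2 fold change of 0.22 ± 0.12 did not pass (adjusted p = 0.2), nor did the difference of -0.30 ± 0.12 from S-PRT (adjusted p = 0.26). The S-PRT call was lost without NR replicate 1, 2, 3 or 4 (adjusted p = 0.114, 0.0948, 0.107 and 0.093) and without S-PRT replicate 2, 3 or 4 (0.0577, 0.15 and 0.0685). It depended on scaling: with library totals alone the log2 fold change was 0.37 (adjusted p = 0.398), and on log2(TPM + 1) it was 0.27 (limma adjusted p = 0.624), with TPM of 6.39 to 12.21 in NR and 8.97 to 13.51 in S-PRT. F-PRT ran from 8.51 to 14.23 TPM, and its mean of 11.5 was close to the 11.3 of S-PRT. On the TPM scale the higher level was thus not particular to S-PRT. Csf1r, the receptor for this growth factor, was looked up after its values were seen and averaged 29.5 ± 7.43 CPM without irradiation, 29.6 ± 12.03 after S-PRT and 26.2 ± 7.08 after F-PRT (edgeR adjusted p = 0.992 and 0.71).

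Neither of the NF-kB inhibitors passed the test in any of the 3 comparisons. Nfkbia (ENSMUSG00000021025.9) encodes IkB-alpha, the inhibitor that NF-kB itself induces to end its activity. It measured 15.6, 15.03, 21.99 and 18.4 CPM in NR replicates 1 to 4, 15.2, 13.97, 16.4 and 19.3 CPM in S-PRT, and 15.7, 14.96 and 28.3 CPM in F-PRT replicates 2 to 4. The groups overlapped throughout, and F-PRT replicate 4 was the highest of the 11 libraries. The log2 fold change was -0.13 ± 0.20 in S-PRT, with an interval of 2 SE from -0.52 to 0.26 (edgeR adjusted p = 0.77). In F-PRT it was 0.15 ± 0.21 (-0.27 to 0.57, adjusted p = 0.63), and -0.22 without replicate 4. Tnfaip3 (ENSMUSG00000019850.12), a ubiquitin-editing enzyme that shuts off TNF and interleukin-1 signalling, measured 1.65, 1.38, 2.40 and 2.46 CPM in NR replicates 1 to 4 and 2.44, 2.57, 2.52 and 2.68 CPM in S-PRT. In F-PRT replicates 2 to 4 it measured 2.09, 1.72 and 2.71 CPM. The S-PRT libraries lay close together at the top of the NR range, with S-PRT replicate 1 just under NR replicate 4. The log2 fold changes of 0.36 ± 0.21 in S-PRT and 0.14 ± 0.23 in F-PRT did not pass (adjusted p = 0.39 and 0.69), and the intervals of 2 SE, -0.06 to 0.78 and -0.32 to 0.60, hold both a small fall and a rise.

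Icam1 (ENSMUSG00000037405.9), the NF-kB-induced ligand of leukocyte integrins, measured 6.47, 4.34, 7.50 and 8.86 CPM in NR replicates 1 to 4 and 9.90, 9.65, 16.2 and 13.1 CPM in S-PRT. In F-PRT replicates 2 to 4 it measured 11.4, 6.73 and 12.7 CPM. In CPM all S-PRT libraries were above NR, and in F-PRT only replicate 3 fell within the NR range. On the TPM scale S-PRT replicates 1 and 2, at 3.13 and 3.05, lay within the NR range of 1.65 to 4.46. The S-PRT mean of 12.2 ± 3.07 CPM against 6.79 ± 1.91 gave a log2 fold change of 0.84 ± 0.24 that did not pass in the fit without a block (edgeR adjusted p = 0.1). With the replicate number as a block the value was 0.85 (adjusted p = 0.00392), and same-numbered S-PRT libraries were 1.53, 2.23, 2.15 and 1.48 times NR. It passed as well in DESeq2's test (0.84, adjusted p = 0.0202). In F-PRT, at 10.3 ± 3.14 CPM, the log2 fold change of 0.60 ± 0.26 did not pass (edgeR adjusted p = 0.12), but did without F-PRT replicate 3 (0.82, adjusted p = 0.0323). F-PRT and S-PRT differed by -0.24 ± 0.26 (interval of 2 SE from -0.76 to 0.28).

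With the replicate block, the S-PRT calls among the 7 tested genes numbered 4 (Il1b, Csf1, Tnf and Icam1) in place of 2, while the share of all 14556 genes called went from 1.29% to 9.80%. Il1b and Csf1 had adjusted p of 0.00729 and 0.00323 in that fit. Replicates 3 and 4 of NR and S-PRT had more Icam1 than replicates 1 and 2 of the same group, and in S-PRT the same held for Il1b and Tnf. Leaving the group means out, the deviations of Tnf and Icam1 over the 11 libraries had a Pearson correlation of 0.853. Those of Tnfaip3 correlated with Icam1 at 0.789 and with Nfkbia at 0.779, whereas Csf1 had -0.303 with Nfkbia and 0.24 with Icam1. These values are over the same libraries, which share depth and scaling, and are given as a description.

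Over 10528 genes the deviations most like those of Icam1 were in Fbln2 (Pearson 0.987), Pcolce (0.979) and Fstl1 (0.975), which encode an extracellular matrix protein, an enhancer of procollagen processing and a secreted glycoprotein. For Nfkbia they were in Itm2b (0.977), Fam117b (0.971) and Itpripl1 (0.96), and for Tnfaip3 in Med27 (0.972), Atg4c (0.952) and Adamts5 (0.942). For Csf1 they were in Traf7 (0.959), Spire1 (0.958) and R3hcc1l (0.949). These are the highest of 10528 correlations over only 11 libraries, and the size that chance alone would reach was not computed. They are given as a description and do not show shared regulation. Only genes whose log2 CPM averages at least 1 were compared. Il1a, Il1b, Il1rn, Il18, Il33, Tnf and the pathway genes below that level could therefore not appear. Of those compared, no member of the 10 and no gene of the wider pathway list was among these nearest genes.

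Markers of leukocytes were also compared, and Ccr2, of recruited monocytes, rose in both irradiated groups. Fewer or more cells of a type and less or more RNA per cell cannot be told apart in bulk tissue. Summed TPM of 4 recruited monocyte markers was 1.17 to 3.39 for NR, 3.21 to 8.69 for S-PRT and 2.75 to 6.48 for F-PRT, and 1 of the 3 tested was called higher in each irradiated group. Ccr2, the chemokine receptor through which monocytes are recruited, had log2 fold changes of 2.33 ± 0.25 in S-PRT (edgeR adjusted p = 0.0032) and 2.18 ± 0.27 in F-PRT (adjusted p = 0.00237). The sum of 7 general myeloid markers was 76.96 to 169.58 for NR, 110.28 to 255.45 for S-PRT and 88.49 to 239.79 for F-PRT. Of these, 0 of 7 were called in S-PRT, with 6 at an unadjusted edgeR p under 0.05, and 1 of 7 was called higher in F-PRT (C1qa, 0.91 ± 0.29, edgeR adjusted p = 0.0454). Over all genes, 18.3% had an unadjusted edgeR p under 0.05 in S-PRT and 36.1% in F-PRT. Marker calls are to be read against the 1.29% of all genes called in S-PRT and the 19.5% called in F-PRT. The 5 neutrophil markers summed to 2.72 to 7.72 TPM for NR, 5.38 to 21.3 for S-PRT and 6.21 to 21.98 for F-PRT, and Retnlg was at 0 in at least 1 NR library. Of the 3 neutrophil markers tested, 0 were called in either group, with 3 at an unadjusted edgeR p under 0.05 in S-PRT and 1 in F-PRT. Of the 5 resident macrophage markers, Cd163 was called lower in S-PRT, and Cd163 and Timd4 in F-PRT, while Mrc1 and Folr2 had log2 fold changes of 0.19 and 0.29 in S-PRT that did not pass (edgeR adjusted p = 0.629 and 0.543). The 5 had a sum of 12.4 to 27.6 TPM for NR, 10.66 to 20.52 for S-PRT and 10 to 20.35 for F-PRT. For endothelium, where Icam1 is found, 1 of 5 markers was lower in each irradiated group and the sum was 58.9 to 135.42 TPM for NR, 39.58 to 82.17 for S-PRT and 37.23 to 106.19 for F-PRT. The part of these cell type differences in the values of Il1b, Tnf, Csf1 and Icam1 was not tested.

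**Figure D4:**
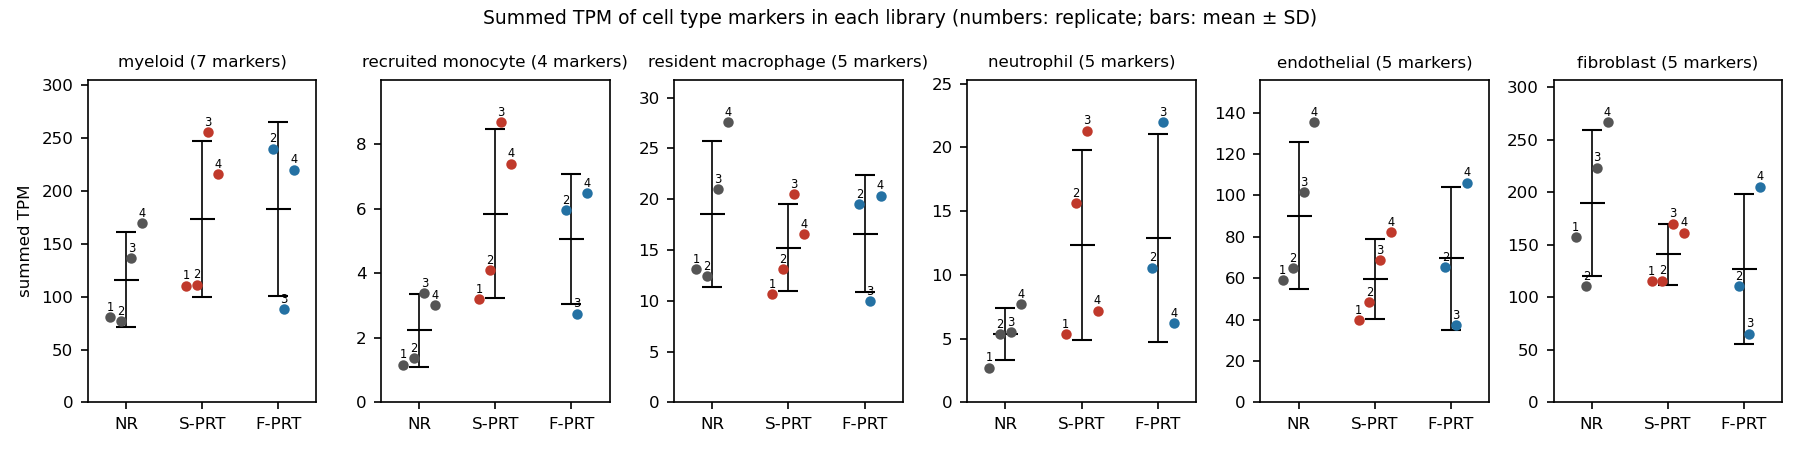
Summed TPM of marker genes of 6 cell types in each library by group, each panel on its own linear axis from 0; points are libraries numbered by replicate and bars are the mean ± SD. Recruited monocyte sums run from 1.17 to 3.39 for NR, 3.21 to 8.69 for S-PRT and 2.75 to 6.48 for F-PRT, so both irradiated groups overlap NR. The NR range of the myeloid sum, 76.96 to 169.58, holds S-PRT replicates 1 and 2 (110.28 and 111.35) and F-PRT replicate 3 (88.49).

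Around the 10 genes, a list of 101 further genes of the same circuit was read in the same fits, of which 89 were tested. In S-PRT 3 rose and 0 fell, where 1.29% of all genes were called, with a median log2 fold change of 0.13 against 0.01 over all genes. The 3 were Pycard, the adaptor of inflammasomes, and the chemokines Ccl2 and Cxcl10. In F-PRT 11 rose and 5 fell, with a median of 0.16 against 0.03, and a share of 16 in 89 is near the 19.5% called among all genes. In F-PRT against S-PRT 0 were called, with 8 at an unadjusted edgeR p under 0.05, and DESeq2's test called 0 as well. The S-PRT count was 0 without NR replicate 2, 3 or 4 or S-PRT replicate 3, 1 without NR replicate 1 or S-PRT replicate 4, 5 without F-PRT replicate 2 or 3, 0 with the length trend removed, and 18 with the replicate block, under which 9.80% of all genes were called. The F-PRT count was 9 without NR replicate 1, 5 without F-PRT replicate 2, 10 without replicate 4 and 26 without replicate 3, and 3 with the length trend removed, a setting that called 3.39% of all genes. The F-PRT counts by role given next are to be read against the 19.5% of all genes called there, and they set no role apart.

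Among ligands and receptors of the interleukin-1 family nothing passed. The 4 further ligands measured were below the filter, and 0 of 8 tested receptors and decoys were called in either irradiated group. Il18bp, the secreted decoy for interleukin-18, had the smallest p of these in S-PRT, with 5.64 ± 1.79 CPM against 3.48 ± 0.483 in NR (log2 fold change 0.72 ± 0.22, edgeR adjusted p = 0.128). Of 11 adaptors, 1 passed: Traf6, the ubiquitin ligase below the interleukin-1 and Toll receptors, fell in F-PRT (-0.36 ± 0.12, adjusted p = 0.0462), a call lost with the length trend removed (-0.05, adjusted p = 0.825).

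Of 9 tested genes listed under the processing of interleukin-1 family cytokines, which include inflammasome parts as well as proteases, 2 passed. Pycard rose from an NR level of 4.94 ± 0.727 CPM to 8.25 ± 0.9997 with S-PRT (log2 fold change 0.74 ± 0.13, edgeR adjusted p = 0.0259) and to 8.51 ± 0.888 with F-PRT (0.79 ± 0.14, adjusted p = 0.0078). With the length trend removed neither Pycard call stood, at 0.61 in S-PRT (adjusted p = 0.0713) and 0.48 in F-PRT (adjusted p = 0.074). Its counts were not whole in 4 libraries. Casp4, the inflammatory caspase that senses bacterial lipopolysaccharide inside cells, rose in F-PRT from 1.13 ± 0.226 to 2.54 ± 0.227 CPM (1.16 ± 0.21, adjusted p = 0.00809). In S-PRT its value was 0.72 ± 0.20 (adjusted p = 0.0952). The other 7 of the 9 tested did not pass in either comparison. Among them, Casp1 had log2 fold changes of 0.35 in S-PRT and 0.12 in F-PRT (edgeR adjusted p = 0.58 and 0.821).

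Of 13 tested TNF receptor and signalling genes, 0 passed in S-PRT and 2 in F-PRT. Tnfrsf12a, the receptor for the cytokine TWEAK, rose in F-PRT from 21.8 ± 5.03 to 38.1 ± 10.8 CPM (0.80 ± 0.19, edgeR adjusted p = 0.0163). Adam17, the protease that sheds TNF from the cell surface, fell from 23.0 ± 0.589 to 18.7 ± 0.676 CPM (-0.30 ± 0.07, adjusted p = 0.0178). With the length trend removed, Tnfrsf12a had 0.46 (adjusted p = 0.213) and Adam17 -0.08 (adjusted p = 0.587), so neither passed, and the Adam17 counts were not whole in 9 libraries. Among 9 kinase and NF-kB subunits, Relb, a subunit of the alternative NF-kB pathway, rose in F-PRT (0.66 ± 0.14, adjusted p = 0.0106), and Ikbkg, the regulatory subunit of the IkB kinase, fell (-0.30 ± 0.09, adjusted p = 0.0321). The Ikbkg call was lost with the length trend removed (-0.19, adjusted p = 0.161). Neither Relb nor Ikbkg passed in S-PRT, at 0.47 ± 0.13 (adjusted p = 0.0893) and -0.16 ± 0.08 (adjusted p = 0.306).

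Of 16 other tested feedback genes, 0 passed in S-PRT, and in F-PRT 3 rose and 2 fell. Nfkbiz, an inducible nuclear IkB protein, rose from an NR level of 1.38 ± 0.223 CPM to 2.70 ± 0.798 in F-PRT (0.97 ± 0.24, edgeR adjusted p = 0.0189), and measured 2.63 ± 0.577 CPM in S-PRT (0.93 ± 0.23, adjusted p = 0.0646). Bcl3, another nuclear IkB protein, rose in F-PRT (0.98 ± 0.25, adjusted p = 0.0204), as did Otulin, which removes linear ubiquitin chains (0.45 ± 0.11, adjusted p = 0.0155). Otud7b, a deubiquitinase of the same circuit, fell (-0.31 ± 0.10, adjusted p = 0.0413). With the length trend removed the Otud7b value turned to 0.02 (adjusted p = 0.93), and Bcl3 (0.78, adjusted p = 0.0863) and Otulin (0.22, adjusted p = 0.183) did not pass. F-PRT and S-PRT differed by 0.03 ± 0.24 for Nfkbiz and 0.28 ± 0.25 for Bcl3, and neither difference passed. With the length trend removed, the pathway genes still called in F-PRT were Casp4, Relb and Nfkbiz.

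Other NF-kB target genes had the largest values among the named genes. Ccl2, the chemokine that draws monocytes, rose from an NR level of 0.980 ± 0.195 CPM to 3.94 ± 2.12 with S-PRT (log2 fold change 2.02 ± 0.40, edgeR adjusted p = 0.034) and to 3.58 ± 1.80 with F-PRT (1.89 ± 0.42, adjusted p = 0.0137). Cxcl10, a chemokine that interferons also induce, rose by 3.10 ± 0.67 in S-PRT and 2.88 ± 0.71 in F-PRT on the log2 scale (adjusted p = 0.0449 and 0.0181). Lcn2, an iron-sequestering protein of neutrophils and stressed cells, rose in F-PRT (1.65 ± 0.36, adjusted p = 0.0128) and had 0.96 ± 0.35 in S-PRT (adjusted p = 0.168). Bcl2a1d, a survival gene of leukocytes whose reads are shared with near copies and whose level is uncertain, was called higher in F-PRT (2.32 ± 0.65, adjusted p = 0.0284). Its NR mean of 0.0785 CPM lay below the level of the count filter, so it entered the test through the irradiated libraries, and the NR mean of Cxcl10, 0.328 CPM, was also below that level. With the length trend removed, Ccl2, Cxcl10, Lcn2 and Bcl2a1d did not pass in F-PRT (edgeR adjusted p = 0.0728, 0.0724, 0.0737 and 0.115). Ccl2 and Cxcl10 did not pass in S-PRT either (0.0713 and 0.0885). Of 4 tested genes in the CSF1 receptor axis and 9 leukocyte adhesion genes, 0 were called. The smallest p in S-PRT belonged to Csf2ra, a subunit of the receptor for granulocyte and macrophage colony-stimulating factor (0.94 ± 0.26, adjusted p = 0.0969), and Itgam, the integrin chain of myeloid cells that binds Icam1 (0.77 ± 0.23, adjusted p = 0.114). In F-PRT Itgam measured 4.14 ± 1.29 CPM against 4.10 ± 0.831 in NR (0.01 ± 0.25).

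**Figure D5:**
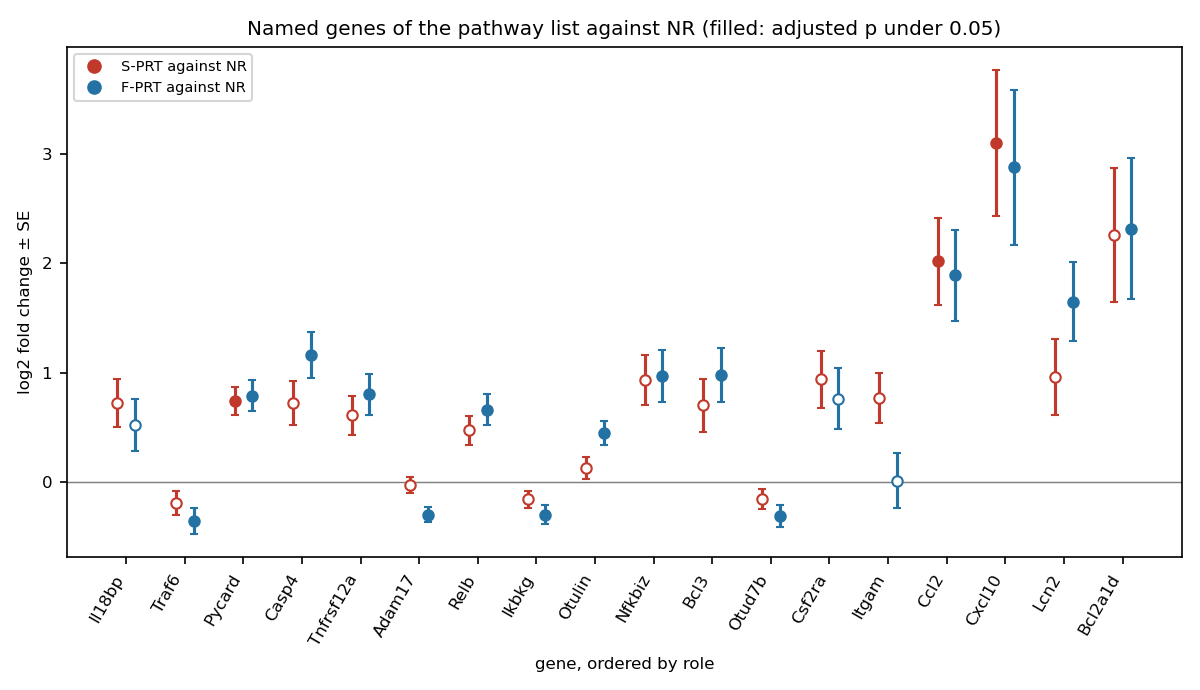
Log2 fold change ± SE against NR of the named genes of the pathway list, ordered by role, for S-PRT (red) and F-PRT (blue); filled points have an edgeR adjusted p under 0.05. Ccl2, Cxcl10 and Pycard are filled in both comparisons, which share the NR libraries, and the values of Ccl2 and Cxcl10 lie between 1.89 and 3.10.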

How the data were processed

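Bulk RNA-seq of 11 heart apex libraries was used. Per the labels' protocols, total RNA was made into poly(A)-selected, directional libraries. The submitters' processing notes name STAR, RSEM, FastQC, cutadapt and edgeR without versions, and list mm10 as well as GRCm39. The deposited files give expected counts per gene, which share ambiguous reads by a model, TPM scaled by effective length, and averaged transcript lengths in bases, per the file headers. The use of strand in counting is not stated, so overlapping genes are uncertain. Expected counts were whole in all libraries (to within 1e-09 counts) for 8 of the 10 genes, and not for Il1a and Icam1.

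Expected counts were rounded, filtered with filterByExpr (minimum count 10, minimum total 15), scaled by TMM and fitted over all 11 libraries with edgeR 4.0.16 in R 4.3.3 (8 residual degrees of freedom). The SE is the log2 fold change divided by the square root of F. The fit was tested on simulated data. Alternatives were the size factors and test of DESeq2 1.42.0, scaling by totals, limma 3.58.1 (voom, and log2 TPM with 1 or 0.1 added), other filters, only the groups compared, a replicate block, removal of a length trend, 1 surrogate variable (sva 3.50.0), and leaving out each library. The Il1rn to Il1b ratio was compared by exact permutation over libraries. Precision is limited by counting for the genes with few reads, and the bounds for counts of 0 cover counting error only.

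Replicate numbers, from the titles, run from 1 to 4, for F-PRT from 2 to 4. Deviations from group means over 11107 genes correlated at 0.184 to 0.363 in the 4 same-numbered pairs of S-PRT and NR. All were over 0.1, the level set for treating these libraries as paired. The main fit nevertheless used no block, so its calls ignore the pairing. The paired fit is the replicate block, given beside it. For F-PRT and NR the same-numbered correlations ran from -0.446 to 0.233, and those libraries were not taken as paired. The 12 differently numbered pairs of S-PRT and NR ran from -0.447 to 0.443, so some stood above the same-numbered ones. S-PRT replicate 1 had 0.443 with NR replicate 2 and 0.265 with NR replicate 1. S-PRT replicate 4 had 0.369 with NR replicate 3 and 0.184 with NR replicate 4. A shared number therefore does not always mark the most alike library, and whether the numbers stand for true pairs is not known. This pairing rests on the titles and these correlations, not on a stated animal, day or batch.

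The 10 genes and all gene and marker lists were chosen with earlier results of these data known. All 10 are named. From the pathway list (102 names, 101 matched, Il36rn unmatched), each role gives its called genes, up to 4 by smallest p, or, where none is called, the gene with the smallest p in S-PRT against NR. For each of the 10 whose log2 CPM averages at least 1, the 3 genes with the most similar deviations are named.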

Additional observations from a re-analysis of the deposited data

Results flagged for a closer look

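Tnf in NR replicate 2 stood far below the other NR libraries, at a log2 CPM of -4.74 (0.0374 CPM, 1 count), with a gap to the nearest library of 0.899 of the range of the group. Il33 in S-PRT replicate 3 stood above the other S-PRT libraries, at a log2 CPM of 0.84 (1.78 CPM), with a gap of 0.863 of the range. These were 2 of 14 groups of 4 libraries looked at, and chance marks about 1 in 20 such groups.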

How the results depend on the processing

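The number of the 10 genes called in S-PRT against NR was 2, and it was 0 with library totals alone, 0 on log2(TPM + 1), 0 on log2(TPM + 0.1), 1 with the stricter filter (1 CPM in 3 libraries, which leaves out Il1b and Tnf), 4 with the replicate block, and 0 to 2 when 1 library was left out. In F-PRT against NR it was 1, and it was 0 with library totals alone, the stricter filter, the replicate block, the replicate block with the length trend removed, both TPM scales and the length trend removed, and 0 to 2 when 1 library was left out. In the pathway list the S-PRT count of 3 became 0 with library totals alone, on both TPM scales and with the length trend removed, 12 in DESeq2's test, 1 in limma-voom, 11 with no filter, 7 with only these groups, 18 with the replicate block, 15 with the block and the length trend removed and 5 with 1 surrogate variable, and ranged from 0 to 5 when 1 library was left out. The F-PRT count of 16 became 0 with library totals alone, with the block, with the block and the length trend removed and on both TPM scales, 3 with the length trend removed, and 5 to 26 when 1 library was left out. The F-PRT and NR libraries were not taken as paired, so the block there takes out a shared number only. In F-PRT against S-PRT both counts were 0 in each of these settings. The block changed no other call of the 7 tested genes than those given for Tnf and Icam1 in S-PRT and Tnf in F-PRT. Icam1 in S-PRT against NR passed in 4 of 24 other settings, among them the block and DESeq2's test. None of the 4 was a fit with 1 library left out.

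Among the 10 genes, signs turned for small differences that passed in no setting. Csf1 in F-PRT against S-PRT became 0.017 and 0.018 on log2(TPM + 1) and log2(TPM + 0.1). Il33 there became 0.05 with library totals alone and ran from -0.622 to 0.121 when 1 library was left out, and Tnf ran from -0.001 to 0.407. Nfkbia in F-PRT against NR became -0.064 with the length trend removed and -0.143 with the block as well, and ran from -0.216 to 0.311 without 1 library, and against S-PRT from -0.085 to 0.433. Tnfaip3 in F-PRT against NR ran from -0.058 to 0.27. Of the pathway genes, Otud7b in F-PRT against NR, called at -0.31, turned to 0.02 with the length trend removed. The cause of these shifts was not tested, beyond the fewer genes and libraries that some settings use. With library totals alone the median log2 fold change of all genes was -0.136 (0.0068 with TMM) in S-PRT against NR, 0.0721 (0.0283) in F-PRT against NR and 0.188 (0.002) between the irradiated groups.

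Over all genes, the 188 calls of S-PRT against NR (127 higher, 61 lower) became 11 and 3 with library totals, 460 and 237 in DESeq2's test, 439 and 166 with no filter, 350 and 233 with only these groups, 957 and 469 with the block, 605 and 273 with the block and length trend, 32 and 12 with the length trend, 282 and 186 with 1 surrogate variable, and 1 and 1 or 3 and 0 on the TPM scales. The 2841 of F-PRT against NR (1579 and 1262) became 69 and 65 with library totals, 22 and 7 with the block, 8 and 1 with block and length trend, 278 and 216 with the length trend, and 37 and 34 or 37 and 37 on the TPM scales. Fewer than 30 reads lie behind each value of Il1a, Il1rn, Il18 and Tnf in a library, which limits their precision.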
